A study of Homo sapiens with 15 samples.

Results

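The genes that build and steer cohesin are themselves places where cohesin and blood transcription factors may bind. The loci described here are those of RAD21, SMC3, NIPBL, WAPL and CTCF, seen by ChIP-seq for GATA2, RUNX1 and SMC3 in TF-1 cells, a human erythroleukemia cell line. A peak belongs to a locus when its summit lies in a fixed hg19 window: RAD21 on chromosome 8 from 117840000 to 117910000, SMC3 on chromosome 10 from 112310000 to 112380000, NIPBL on chromosome 5 from 36860000 to 37080000, WAPL on chromosome 10 from 88180000 to 88300000, and CTCF on chromosome 16 from 67570000 to 67700000. The windows cover 610 kb and hold 52 of the 198298 peaks in the 6 deposited lists.

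The tested cells carried an inducible vector for RAD21 Q592*, in which a premature stop codon shortens the protein, and the cells they are set against carried the same kind of vector for wild-type (WT) RAD21. Both lines were given doxycycline for 6 days, so both express a RAD21 transgene on top of whatever their own gene makes, and no untransduced or uninduced cells are among the groups. The labels give 11 ChIP and 4 input libraries: for each line, 2 per target and 2 inputs, with the exception of 1 RUNX1 library in Q592*. The peaks of each line and target come as 1 pooled list. Without replicate values the lines could not be tested against each other; every difference below is one between 2 pooled lists.

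Cohesin is a ring built from SMC1A, SMC3, RAD21 and a STAG subunit that encircles DNA. NIPBL loads the ring and drives its movement along chromatin, WAPL releases it, and CTCF, a zinc finger protein, halts it at its own binding sites. GATA2, a zinc finger factor, and RUNX1, a Runt domain factor, control genes of early blood cells, and genes of the cohesin complex are recurrently mutated in myeloid leukemia.

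Cohesin was called at 4 of the 5 loci in both lines, GATA2 at more places in Q592* than in WT in the full lists, and RUNX1 at none. SMC3 had 12 peaks in Q592* and 14 in WT. GATA2 had 19 peaks in Q592* and 7 in WT, but with both GATA2 lists cut to the same length by −log10 q the windows held 8 in Q592* and 7 in WT. The GATA2 and SMC3 counts, here and below, include a series of calls at RAD21 that is described further on. Whether reads from the vector contribute to that series was not tested. RUNX1 had 0 peaks in the windows in either line, and the WAPL window had 0 peaks of any target.

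**Figure D1:**
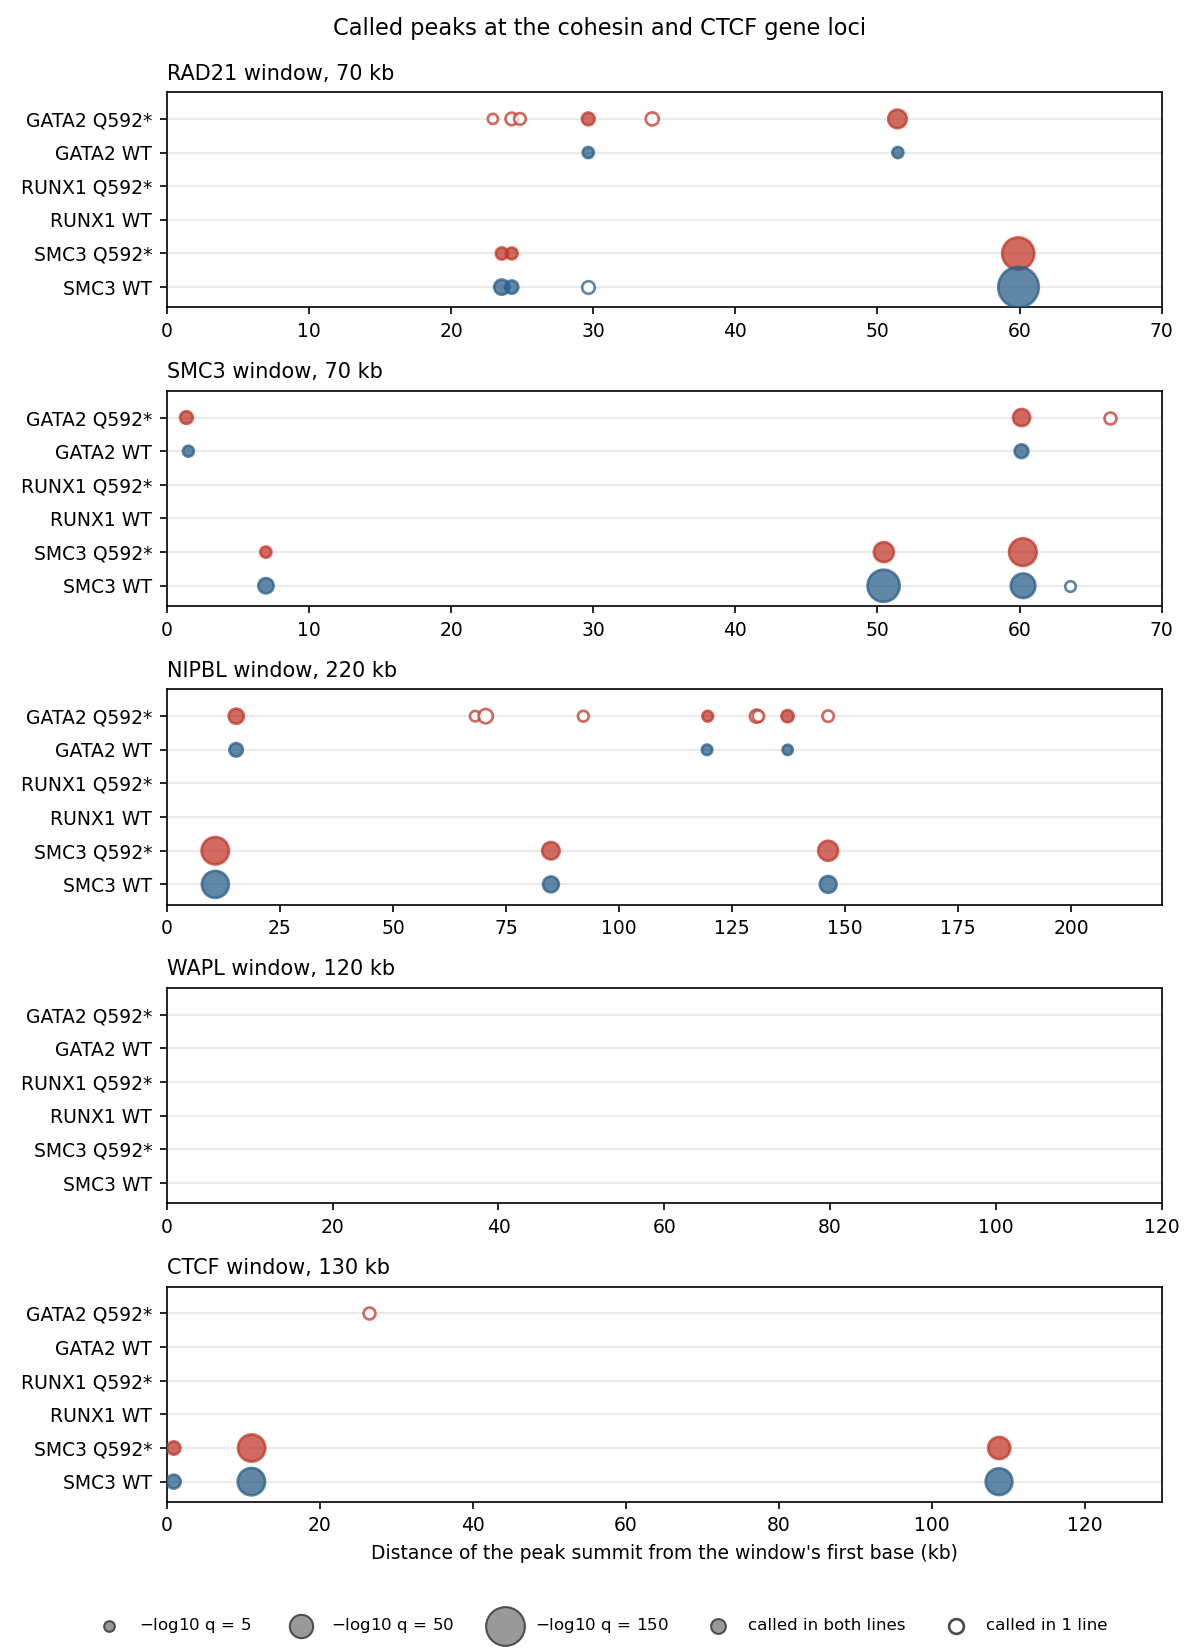
Peaks of GATA2, RUNX1 and SMC3 in Q592* (red) and WT (blue) cells across the 5 windows; the x axis is the distance of each summit from the first base of its window in kb, circle area grows with the −log10 q in the peak's own list, and open circles are regions called in 1 line. The SMC3 circles of both lines line up at 12 places, 12 of the 19 GATA2 circles of Q592* are open, and the RUNX1 rows and the WAPL window are empty.

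The promoters of 3 of these genes are shown because their loci span the range of GATA2 calls: NIPBL with the most, CTCF with 1 and WAPL with none. The sequences run 5′ to 3′ from 250 bases before to 50 bases after the gene start, are those of RefSeq in the build GRCh38.p14, and were matched by symbol, which found 4 of the 5 genes; RAD21 was not matched. Capitals mark a GATA motif, taken as AGATAA or AGATAG or TGATAA or TGATAG on either strand.
CTCF: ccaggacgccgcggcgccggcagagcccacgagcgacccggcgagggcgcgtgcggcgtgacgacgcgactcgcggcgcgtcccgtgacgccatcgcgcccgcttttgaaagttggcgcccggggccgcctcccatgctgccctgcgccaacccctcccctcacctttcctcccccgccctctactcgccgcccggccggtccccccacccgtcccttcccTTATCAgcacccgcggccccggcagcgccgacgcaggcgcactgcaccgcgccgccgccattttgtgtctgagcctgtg
NIPBL: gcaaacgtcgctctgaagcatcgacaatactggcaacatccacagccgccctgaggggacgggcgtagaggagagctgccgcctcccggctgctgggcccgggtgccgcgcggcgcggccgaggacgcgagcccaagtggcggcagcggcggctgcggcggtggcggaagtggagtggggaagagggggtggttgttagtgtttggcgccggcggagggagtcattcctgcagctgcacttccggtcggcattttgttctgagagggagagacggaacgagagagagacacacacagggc
WAPL: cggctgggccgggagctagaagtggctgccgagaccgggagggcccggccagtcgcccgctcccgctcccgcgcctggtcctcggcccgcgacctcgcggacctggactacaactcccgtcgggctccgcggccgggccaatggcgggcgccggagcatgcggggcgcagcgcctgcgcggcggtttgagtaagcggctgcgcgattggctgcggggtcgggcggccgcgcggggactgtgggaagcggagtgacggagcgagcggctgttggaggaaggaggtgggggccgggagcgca

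The CTCF promoter held 1 match, TTATCA, which reads TGATAA on the other strand and starts 29 bases before the gene start. The NIPBL, WAPL and SMC3 promoters held 0, and 8769 of all 35116 promoters of that length in the table held at least 1. The RUNX motif TGTGGT, searched on both strands, was in 0 of the 4 promoters and in 13.1% of all promoters. The gene starts in hg19 were not used here, so whether a peak covers any of these promoters was not tested, and the windows may also reach into neighbouring genes.

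Within the windows, and with the full lists, GATA2 was the target whose calls differed most between the lines. The Q592* list held 6 peaks at RAD21, 9 at NIPBL, 3 at SMC3 and 1 at CTCF. The WT list held 2 at RAD21, 3 at NIPBL, 2 at SMC3 and 0 at CTCF. At the average density of each list, 610 kb would hold 11.6 GATA2 peaks in Q592* and 7.7 in WT.

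All 7 WT peaks overlapped a Q592* peak, so the 19 GATA2 regions of the windows comprise 7 shared by both lines, 12 called in Q592* alone (63.2%) and 0 called in WT alone. These counts depend on the longer Q592* list: at equal list lengths 5 regions were shared, 3 were Q592*-only and 2 were WT-only. Over all 63989 GATA2 regions of the series, 51.9% were shared, 40.1% were Q592*-only and 7.96% were WT-only. The peaks of the windows were weak ones in their lists. Their median −log10 q was 8.83 in Q592* and 5.90 in WT, against 15.2 and 12.2 over the full lists, and 0 of them reached the top quartile of either list. Among all Q592* GATA2 peaks within the same span of −log10 q, from 3.82 to 29.1, 59.7% had no WT partner. The share at the 5 loci is close to that value.

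At the RAD21 locus the strongest GATA2 peak, on chromosome 8 from 117891185 to 117891557, had 72 ChIP reads over its summit in Q592* and 32 in WT. Read counts were recovered from the deposited fold and p, as described under the processing. Per 1000000 (1 M) ChIP reads of the list this is 0.679 (95% exact Poisson interval 0.532 to 0.856) in Q592* and 0.298 (0.204 to 0.420) in WT. The ratio, Q592* over WT, was 2.28 (95% exact interval 1.49 to 3.58, counting error only). Its deposited fold enrichment, the ChIP pileup over the local background, was 8.08 in Q592* and 3.41 in WT. No other peak of GATA2 in the windows had a higher −log10 q than its 29.1 in Q592*.

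The remaining 5 GATA2 peaks of Q592* at RAD21 formed a series of narrow calls between 117862828 and 117874280. They were 173, 168, 163, 217 and 201 bp wide, compared with a median of 279 bp in that list. Their width percentiles were 8.9, 6.8, 4.7, 27.5 and 21.0. Such widths were not confined to RAD21: the 13 GATA2 peaks of Q592* at the other loci were 162 to 327 bp wide, with a median of 238 bp. The summits of the 5 peaks at RAD21 had 39, 57, 36, 58 and 41 ChIP reads. WT had a GATA2 call at 1 of these 5 places, from 117869581 to 117869732, with 29 reads against the 58 of Q592*. That is 0.547 per M in Q592* and 0.270 in WT (ratio 2.03, 1.28 to 3.29). The deposited fold ran the other way, at 3.64 in Q592* and 3.81 in WT, with a local background of 2.43 and 1.13 times the genome-wide value.

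GATA2 at the SMC3 locus was called in both lines at 2 places. The stronger lay on chromosome 10 from 112370020 to 112370268, with 84 Q592* reads and 49 WT reads, a ratio per M of 1.74 (1.21 to 2.53). The other, from 112311263 to 112311597, had 45 reads in Q592* and 28 in WT, and its ratio of 1.63 had an interval that reached 1 (0.995 to 2.71). A peak from 112376229 to 112376483 with 61 reads was called in Q592* alone.

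The NIPBL window carried the most GATA2 calls. The strongest by −log10 q, on chromosome 5 from 36875200 to 36875526, had 102 Q592* reads and 55 WT reads, a ratio per M of 1.88 (1.34 to 2.66). Its deposited fold was lower in Q592*, 3.46 against 3.83 in WT, where the local background was 4.63 times the genome-wide value in Q592* and 2.27 times in WT. At 36979167 to 36979714 there were 37 reads in Q592* and 24 in WT, and at 36997150 to 36997408 there were 35 in Q592* and 23 in WT. Both ratios, 1.56 (0.911 to 2.73) and 1.54 (0.887 to 2.74), had intervals that included 1, and at the first of these places the deposited fold was 3.14 in Q592* and 3.54 in WT. The 6 peaks called in Q592* alone had 28 to 45 reads, and the strongest of them was at 36930412 to 36930687 with a −log10 q of 14.4. The next, at 36990246 to 36990471, had 40 reads and a fold enrichment of 5.07.

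The CTCF window had a single GATA2 call, in Q592*, on chromosome 16 from 67596335 to 67596496. It was 162 bp wide, with 46 reads, a −log10 q of 7.78 and a fold enrichment of 3.62. WT had no call there, which sets no level for WT, since the lists hold only places past the caller's threshold.

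The 7 GATA2 regions called in both lines all had more reads per M in Q592*, with ratios from 1.54 to 2.28 and 4 of 7 intervals above 1. By the deposited fold 4 of the 7 were higher in Q592* and 3 were lower, so the direction at those 3 depends on the scale. Their median log2 ratio was 0.80, and over the 31978 shared GATA2 regions of the series for which reads were recovered it was also 0.80, with 98.5% of them higher in Q592*. The difference at these loci is of the size seen over all shared GATA2 regions. Both summits of a region lay within 147 bp of each other, with a median of 25 bp.

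**Figure D2:**
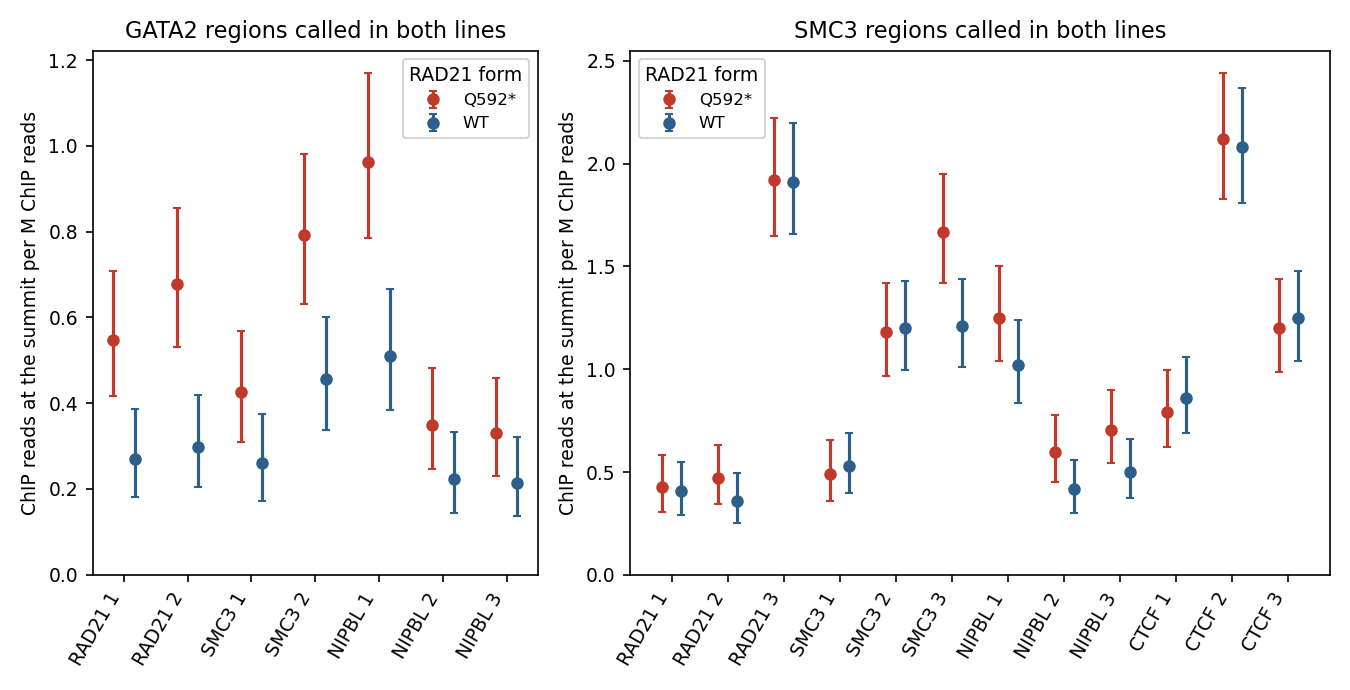
ChIP reads at the summit per M ChIP reads for the 7 GATA2 (left) and 12 SMC3 (right) regions called in both lines, numbered along each locus; points are Q592* (red) and WT (blue) pooled lists and bars are 95% exact Poisson intervals, which cover counting error only. The GATA2 points of Q592* lie above those of WT in all 7 regions, with intervals that overlap in some of them. The SMC3 points of the lines lie in either order, with intervals that overlap in 12 of 12 regions. The interval of the ratio lay above 1 in 4 of the 7 GATA2 and in 1 of the 12 SMC3 regions.

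Cohesin itself was called at mostly the same places in both lines. SMC3 was called 3 times in Q592* at each of RAD21, SMC3, NIPBL and CTCF, and 4, 4, 3 and 3 times in WT. All 12 Q592* peaks overlapped a WT peak, so of the 14 SMC3 regions 12 were shared (85.7%), 0 were Q592*-only and 2 were WT-only (14.3%). Over all 45109 SMC3 regions 65.6% were shared, 6.84% were Q592*-only and 27.6% were WT-only. The summits of the shared regions lay within 29 bp of each other.

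The strongest cohesin site by −log10 q lay in the RAD21 window, on chromosome 8 from 117899725 to 117900147. It had 179 reads in Q592* and 198 in WT, which is 1.92 and 1.91 per M, a ratio of 1.00 (0.813 to 1.23). Its −log10 q of 101 in Q592* and 165 in WT put it at percentiles 91.5 and 98.1 of their lists. The deposited fold was 12.7 in Q592* and 23.3 in WT, with a local background of 2.46 and 1.53 times the genome-wide value. Reads per M were alike, and the fold, which divides by that background, was lower in Q592*.

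The SMC3 locus showed the same divergence more clearly. On chromosome 10 from 112360255 to 112360760, 110 reads in Q592* and 124 in WT gave 1.18 and 1.20 per M, a ratio of 0.983 (0.753 to 1.28). The deposited fold there was 5.76 in Q592* and 20.8 in WT, and the local background was 3.45 times the genome-wide value in Q592* and 1.00 times in WT. The third site of this window, from 112369935 to 112370554, had 156 reads in Q592* and 125 in WT, or 1.67 and 1.21 per M. Its ratio of 1.38 (1.09 to 1.76) was the only 1 of the 12 SMC3 ratios whose interval lay apart from 1. Coverage over the genome-wide background, a scale that does not need the totals, gave 1.15 with an interval that included 1 (0.906 to 1.47). The weakest shared site of the window, from 112316877 to 112317066, had 46 reads in Q592* and 55 in WT.

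**Figure D3:**
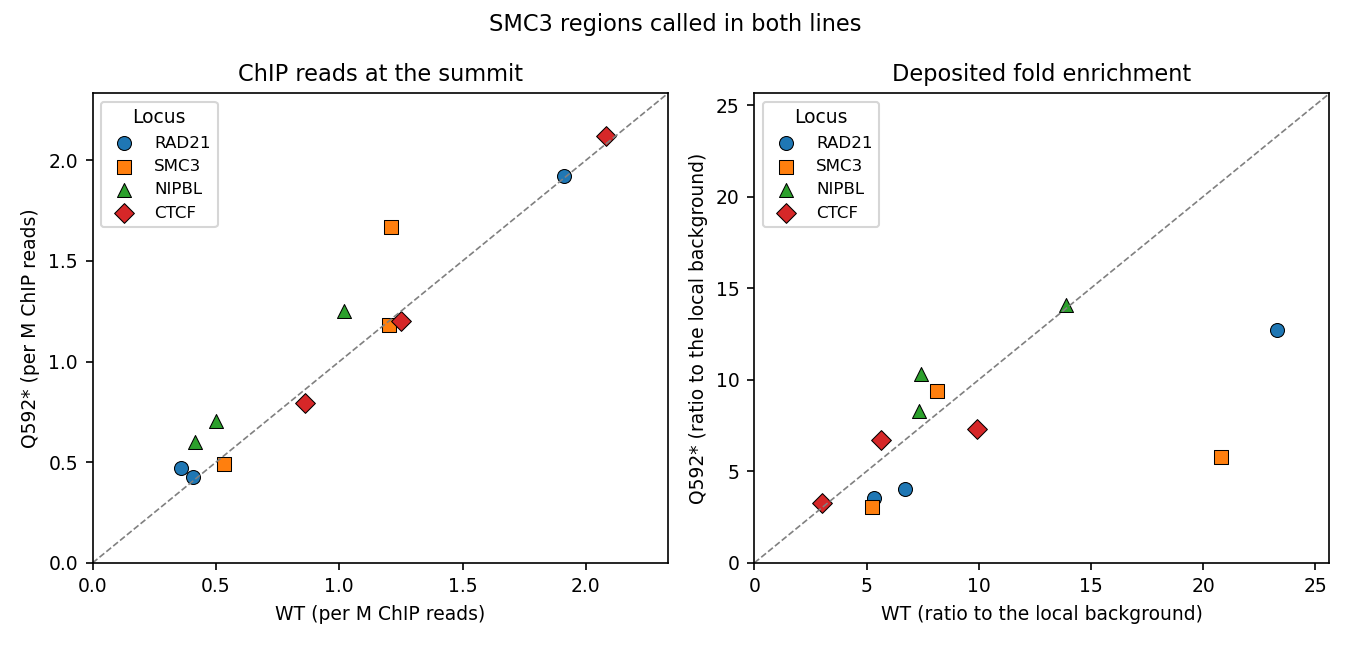
The 12 SMC3 regions called in both lines, Q592* against WT, by ChIP reads at the summit per M ChIP reads (left) and by the deposited fold enrichment (right); the dashed line marks equal values and marker shapes give the locus. On the left 1 point of SMC3 (1.67 in Q592*, 1.21 in WT) lies well above the line, and on the right a point of SMC3 (5.76 in Q592*, 20.8 in WT) and a point of RAD21 (12.7 in Q592*, 23.3 in WT) lie far below it.

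The NIPBL window had 3 cohesin sites, all in both lines. The strongest, on chromosome 5 from 36870416 to 36870969, had 117 reads in Q592* and 106 in WT, the second, from 36944726 to 36945114, had 56 and 43, and the third, from 37005972 to 37006403, had 66 and 52. The ratios per M were 1.22 (0.932 to 1.61), 1.44 (0.952 to 2.2) and 1.41 (0.963 to 2.06), higher in Q592* at 3 of 3 sites with intervals that all included 1. By coverage over the genome-wide background the ratios ran from 1.02 to 1.2.

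The window of CTCF, whose product marks cohesin's stopping points, also had 3 sites. The site with the most reads of any in the windows lay on chromosome 16 from 67580826 to 67581277, with 198 reads in Q592* and 215 in WT, or 2.12 and 2.08 per M (ratio 1.02, 0.837 to 1.24). The sites from 67678548 to 67678886 and from 67570778 to 67571010 had 112 and 74 reads in Q592* and 129 and 89 in WT. Their ratios, 0.962 (0.740 to 1.25) and 0.921 (0.667 to 1.27), had intervals that included 1. By coverage over the genome-wide background the ratios of the 3 sites ran from 0.768 to 0.851, with intervals that included 1.

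Across the 12 shared SMC3 regions, 7 had a log2 ratio per M above 0 and 5 did not, with a median of 0.06. Over the 29471 shared SMC3 regions with recovered reads the median was 0.12. The direction depends on the scale: as coverage over the genome-wide background the median was -0.20 at the loci and -0.15 over all shared SMC3 regions. Between the lines these scales differ only by the fragment length taken, 151 bp for Q592* SMC3 and 126 bp for WT. Values per M rise with that length, and coverage over the genome-wide background does not use it.

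The 2 SMC3 regions called in WT alone were both weak. The one at RAD21, from 117869515 to 117869696, had 30 reads and a −log10 q of 9.76, and the one at SMC3, from 112373464 to 112373662, had 33 reads and a −log10 q of 4.82.

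GATA2 and SMC3 peaks of the same line overlapped at few places. In Q592*, 3 of 12 SMC3 peaks overlapped a GATA2 peak, against 21.2% of all SMC3 peaks of that line, and in WT 2 of 14 (14.3%), against 24.9%. Seen from GATA2, 3 of 19 peaks in Q592* (15.8%) overlapped an SMC3 peak, against 11.7% of that list, and 2 of 7 in WT (28.6%), against 26.3%. An overlap with RUNX1 was seen for 0 SMC3 peaks of the windows, against 12.0% of all SMC3 peaks in Q592* and 11.2% in WT. The place at SMC3 near 112370139 carried both targets in both lines. The place at NIPBL near 37006229, where the GATA2 summit of Q592* lay 4 bp from the SMC3 summit, carried SMC3 in both lines and GATA2 in Q592* alone. The other GATA2 peaks at NIPBL lay 4641 to 26631 bp from the nearest SMC3 summit in Q592*.

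The last places with both targets were in the series of narrow calls at RAD21. At 117864198 to 117864365 GATA2 of Q592* had its summit 3 bp from that of SMC3, which was called there in both lines with 44 reads in Q592* and 37 in WT. At 117869509 to 117869732 GATA2 was called in both lines and SMC3 in WT alone, with summits 30 bp apart in WT. A further SMC3 call of both lines at 117863493 to 117863800 had 40 reads in Q592* and 42 in WT. The SMC3 peaks at 117864181 to 117864346 were 161 bp wide in Q592* and 132 bp in WT, at percentiles 3.7 and 4.1 of the widths in their lists.

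Both lines carry a RAD21 transgene, so signal from the vector has to be considered at this locus. An expression vector usually holds a coding sequence without introns, and reads from it then align to the exons of the gene, in ChIP and in input alike. The local background, which MACS2 takes from the input, was 2.21, 2.43, 1.28, 2.43 and 1.17 times the genome-wide value at the 5 narrow GATA2 peaks of Q592*, and 1.13 times at the WT peak. At the SMC3 peaks of the same stretch, not all of which were narrow for their list, it was 1.72 and 2.22 times in Q592*. In WT it was 1.08, 1.24 and 1.00 times there.

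At the other loci the local background ranged from 1.00 to 5.42 in Q592* and from 1.00 to 7.66 in WT, and the highest values of both lines were at CTCF. Among regions called in both lines it was higher in Q592* at 4 of 5 at RAD21, with a median ratio of 1.61, and at 8 of 14 at the other loci, with a median ratio of 1.09. These counts pool GATA2 and SMC3 regions. Inputs are labelled by line and not by target, so nearby regions may rest on the same input reads and are not separate observations. By target, the regions at RAD21 with a higher value in Q592* were 1 of 2 for GATA2 and 3 of 3 for SMC3. The exception was the GATA2 region from 117891185, outside the series of narrow calls, with 1.25 in Q592* and 1.44 in WT. Over all shared regions of the series it was higher in Q592* at 67.4% for GATA2 and at 44.9% for SMC3. The positions of the RAD21 exons in hg19 were not used here, so the part of the vector in these calls at RAD21 was not tested.

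**Figure D4:**
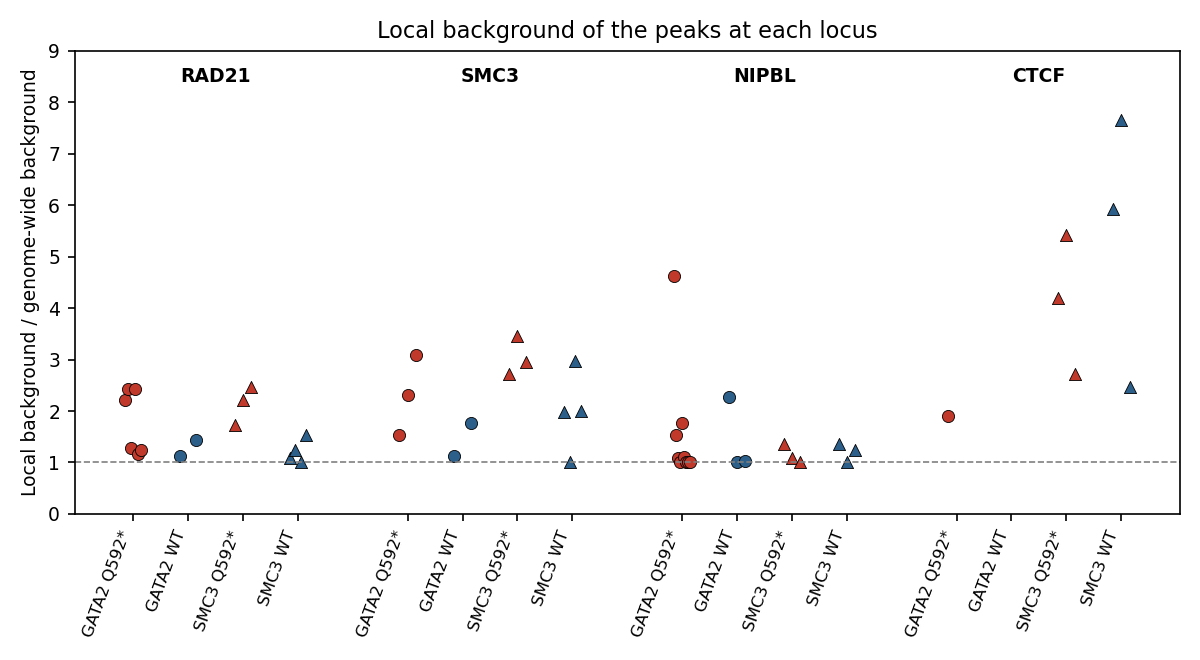
Local background of each peak over the genome-wide background of its list (y axis, ratio), by locus, target and line, with Q592* in red, WT in blue, circles for GATA2 and triangles for SMC3; the dashed line marks the genome-wide value. The RAD21 peaks reach 2.46 in Q592* and 1.53 in WT, below the highest values of CTCF (5.42 and 7.66).

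RUNX1 was not called at any of the 5 loci. Over the 17219 RUNX1 regions of the series, 46.0% were shared, 44.4% were Q592*-only and 9.59% were WT-only. At the average density of its lists the 610 kb would hold 3.1 RUNX1 peaks in Q592* and 1.9 in WT. When the chromosomes were cut into tiles of the windows' lengths, 75.5% of the 70 kb tiles, 65.4% of the 120 kb tiles, 64.0% of the 130 kb tiles and 52.4% of the 220 kb tiles held no RUNX1 peak of either line. The nearest RUNX1 peak to the SMC3 window lay 13.9 kb below it in Q592*, with 68 reads, and 27.5 kb below it in WT, with 37 reads. Around RAD21 the nearest lay 118 kb away in Q592* and 984 kb away in WT.

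WAPL, the release factor, was the 1 locus without a call. Of all 120 kb tiles, 28.6% held no peak of any target in either line. Cohesin was called on both sides of it in both lines. The SMC3 peaks 20.3 kb below the window had 196 reads in Q592* and 207 in WT, and those 45.4 kb above it had 227 in Q592* and 217 in WT. A RUNX1 peak 18.1 kb above it had 83 reads in Q592* and 54 in WT. The nearest GATA2 peak above it was 36.3 kb away in Q592* and 181 kb away in WT.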

How the data were processed

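GATA2, RUNX1 and SMC3 ChIP-seq peaks were analysed as 6 lists, 1 per line and target; the word merge in the peak names was taken as 1 pooled call per group. Bowtie2, Picard, MACS2 and the build hg19 are named in the submitters' processing notes; no version or setting of theirs is given in the sources used here. In the deposited lists the authors give the fold (ratio of ChIP pileup to local background), the −log10 p-value and −log10 q-value of each summit, and a score, which was not used.

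At a summit MACS2 counts ChIP reads and sets them against a Poisson background. Solving its fold and p for both gave whole reads at 100% of peaks in every list (tolerance 0.002 on −log10 p), and for at most 1.71% with the worth of a read set wrong by 3%; peaks with a −log10 p of 250 or more were left out. The recovered ChIP depth of GATA2 was 106.0 M reads (Q592*) and 107.5 M (WT), that of RUNX1 106.7 M and 104.8 M, and that of SMC3 93.4 M and 103.5 M. They rest on an assumed genome size of 2700000000 bp and on fragment lengths equal to the narrowest peak. The background totals found in this way for GATA2, RUNX1 and SMC3 were 78.0, 78.0 and 72.6 M in Q592*. In WT they were 95.3, 86.7 and 86.7 M. Inputs are labelled by line and not by target, so 1 total per line would be awaited if the same input served each target. The depths and the values per M therefore carry an error beyond the counting intervals, which was not estimated. On simulated lists of 3000 peaks, made with the same formulas, 100% of read counts were exact. This checks the solving step only, not the formulas, the genome size or the fragment lengths.

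Peaks overlapping by at least 1 bp formed regions. Intervals are exact Poisson (reads) and exact binomial (ratios) at 95% and cover counting error only; PCR reads are not independent molecules. Coordinates count from 1. Named peaks follow a rule: the strongest per locus, target and line, regions of 1 line with a −log10 q of at least 10, and regions with at least 2 targets; others, such as the remaining shared regions, were named after their values were seen. Loci and lists were chosen with earlier results of these data known. A planned list of other cohesin genes and all gene starts need hg19 annotation, which was not used here. Tables were made in Python 3.11.15 with pandas 2.3.3, numpy 2.4.6 and scipy 1.17.1, and plots with matplotlib 3.10.9.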

Additional observations from a re-analysis of the deposited data

How the results depend on the processing

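No paired analysis was possible because each line and target has 1 pooled list with no replicate numbers, so no library could be left out either. Of 271 alternative counts 206 lay within a factor of 1.5 of the reported one, among them every count with summits within 200 bp or with any overlap with the window. For the others the cause was not tested, other than that a stricter threshold keeps fewer peaks and a wider window takes in more. The scale that counts coverage over the genome-wide background was chosen after seeing the data; the others were planned.

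With a −log10 q of at least 10, GATA2 had 8 peaks in Q592* and 2 in WT in the 5 windows. These were 3 and 0 at RAD21, 2 and 1 at SMC3, 3 and 1 at NIPBL, and 0 and 0 at CTCF. There were then 2 shared and 6 Q592*-only GATA2 regions, 1 Q592* SMC3 peak at RAD21, and 1 SMC3 peak with GATA2 in each line. With equal list lengths GATA2 had 8 peaks in Q592* and 7 in WT: 3 and 2 at RAD21, 2 and 2 at SMC3, 3 and 3 at NIPBL, and 0 and 0 at CTCF, and its regions were 5 in both lines, 3 in Q592* alone and 2 in WT alone. There were then 1 WT-only SMC3 region and 1 Q592* SMC3 peak with GATA2. A reciprocal overlap of 50% gave 2 WT-only GATA2 regions and 1 SMC3 peak with GATA2 in each line. Windows narrowed by 10 kb held 0 GATA2 peaks at SMC3 in both lines, 1 SMC3 peak there in each, 1 WT-only SMC3 region and 1 WT SMC3 peak with GATA2.

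Windows widened by 50 kb held 37 GATA2 peaks in Q592* and 20 in WT, 7 and 3 RUNX1 peaks, and 24 and 29 SMC3 peaks. For GATA2 these were 6 and 2 at RAD21, 7 and 5 at SMC3, 18 and 11 at NIPBL, 5 and 2 at CTCF, and 1 in Q592* at WAPL. For RUNX1 they were 5 and 1 at SMC3, 1 and 1 at WAPL, 1 in Q592* at CTCF and 1 in WT at NIPBL. For SMC3 they were 4 and 6 at RAD21, 6 and 7 at SMC3, 3 and 4 at NIPBL, 3 and 3 at WAPL, and 8 and 9 at CTCF. GATA2 regions were then 16 shared, 21 Q592*-only and 4 WT-only. RUNX1 regions were 2 shared, 5 Q592*-only and 1 WT-only, SMC3 regions were 23 shared, 1 Q592*-only and 5 WT-only, and 1 Q592* SMC3 peak carried RUNX1.

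The log2 ratio of the deposited fold, Q592* over WT, differed in sign from that of reads per M or coverage at 7 shared regions. For GATA2 it was -0.07 at RAD21 (from 117869509), against 1.02 per M and 0.96 by coverage, -0.15 at NIPBL (from 36875200), against 0.91 and 0.85, and -0.17 at NIPBL (from 36979167), against 0.65 and 0.58. For SMC3 at RAD21 it was -0.75 (from 117863493), against 0.08 per M, and -0.60 (from 117864181), against 0.40 per M and 0.14 by coverage. For SMC3 at CTCF it was 0.10 (from 67570778), against -0.12 and -0.38, and 0.25 (from 67580826), against -0.23 by coverage.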
